A study of Mus musculus with 1392 samples.

Results

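The cells described here are young haematopoietic stem cells sorted from mouse bone marrow as Vwf-positive, chosen as every column of the deposited table whose title begins with the name of a young set. They number 332 of the 1392 cells in the table, with 181 in the set young 1 and 151 in young 2. All came from C57BL/6 mice and share 1 sort: lineage-negative, Sca-1-positive, Kit-positive (LSK) cells that were also CD150+, CD48-, CD34- and Vwf+. No treatment is named, and the sources used here give neither the age in weeks nor the sex of the mice. A set may be 1 animal, several pooled animals or 1 plate, which the labels do not state, so the 2 sets were compared as 2 samples, without a test, and every interval below covers counting error only. Each set contributed 1 value per peak, and cells of 1 set were not treated as replicates of a condition.

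Chromatin accessibility was measured in single cells by ATAC-seq, in which the transposase Tn5 inserts sequencing adapters where DNA is not wrapped around nucleosomes or otherwise covered. A diploid cell carries only a pair of copies of each autosomal site, so a single cell samples its open sites sparsely, and a site without a count may still have been open. Long-term stem cells sit at the top of the blood hierarchy and are largely quiescent. Von Willebrand factor, the product of Vwf, is a clotting protein of platelets and endothelium, and Vwf-positive stem cells are known for a bias towards the platelet lineage. The sort uses CD150, encoded by Slamf1, the stem cell factor receptor Kit, and Sca-1, encoded by Ly6a. The peaks are named by position on the mouse build mm9, and no annotation of that build was used here. Peaks were therefore not assigned to these or other genes, and the sort was not checked against its marker genes.

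Depth differed between the sets. Young 1 held 1159957 counts in all, with a median of 6133 per cell and 10th and 90th percentiles of 2796 and 10981. Young 2 held 2589894, with a median of 11807 and percentiles of 2953 and 37772. A median of 4902 of 115295 peaks had a count in a young 1 cell and 9110 in a young 2 cell. The cell numbers in the titles do not overlap between the sets (156 to 347 and 1 to 155), and no pair of young columns was identical. Because more counts make more peaks appear open, each cell was thinned at random to 2831 counts, the 10th percentile over both sets. This left 161 cells of young 1 and 137 of young 2, with 20 and 14 shallower cells left out. A peak is called open in a cell if at least 1 count remained.

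At equal depth, nearly every peak was open in a small minority of cells, and a short list of mostly narrow peaks was open in the great majority. The mean peak was open in 2.19% of young 1 and 2.25% of young 2 cells. Of the 115295 peaks, 4217 in young 1 and 4960 in young 2 were open in at least 10% of cells. The lists share 3078 peaks, which is 73.0% of the first list and 62.1% of the second. At least 50% of cells were open at 16 and 13 peaks, 13 of which were in both lists. At 32225 and 34666 peaks no count remained, which allows a share of cells with a count of up to 1.86% and 2.19% (3 counts over 161 and 137 cells). With all counts kept, 113133 peaks had a count in some young cell and 99345 had one in both sets.

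**Figure D1:**
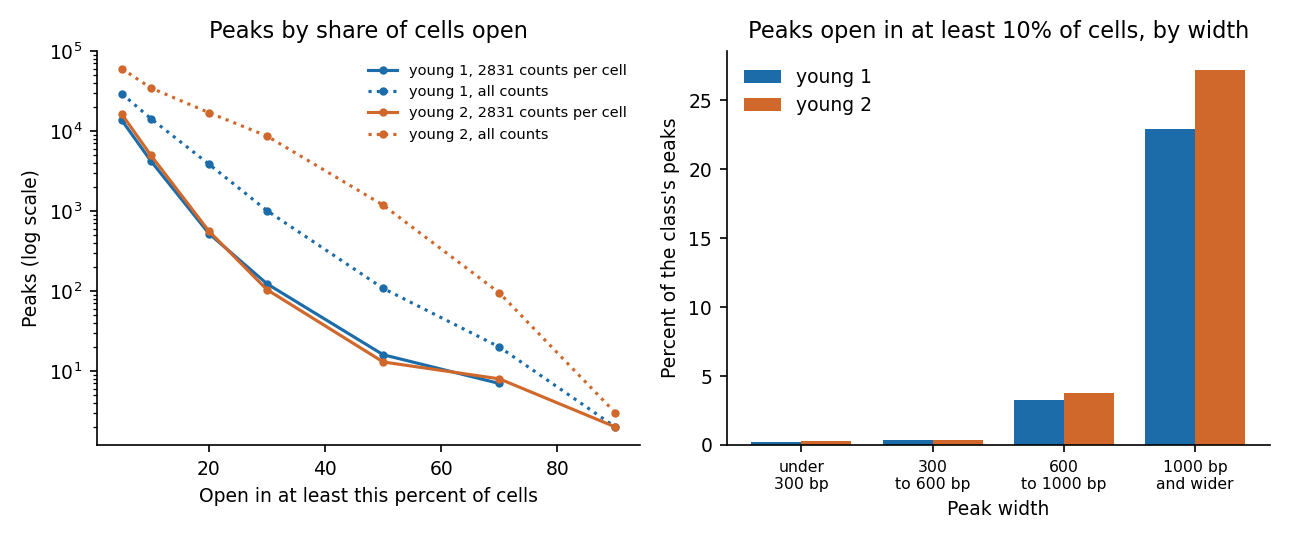
Left, number of peaks (log scale) open in at least the percent of cells on the x axis, for young 1 and young 2, with cells thinned to 2831 counts (solid) or with all counts (dotted); right, percent of the peaks of each width class that were open in at least 10% of thinned cells. The solid lines lie close together while the dotted line of the deeper young 2 set runs above that of young 1, and the class of 1000 bp and wider reaches 22.9% and 27.2%.

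Wide peaks made up most of the commonly open ones, with 3249 of 4217 in young 1 and 3859 of 4960 in young 2. The 14171 peaks of 1000 bp and wider were 12.3% of peaks but held 43.1% of young 1 and 42.9% of young 2 counts. Of these wide peaks, 22.9% and 27.2% were open in at least 10% of cells. Among the 34412 peaks under 300 bp, the shares were 0.241% and 0.253%. The step between these classes was the same way in both sets and far larger than the difference between the sets within a class. A wider peak offers more sites for insertion, and the shares are not scaled to width. Counts per open cell were close to 1 in every class, at 1.12 and 1.09 over all peaks.

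The peaks open in most cells had another shape. Of the 10 with the highest mean open share, 6 were under 300 bp wide. The lead peak, chr5:148422919-148423286, was open in 88.2% of young 1 cells (exact Clopper-Pearson 95% interval 82.2% to 92.7%) and in 93.4% of young 2 cells (87.9% to 97.0%). It held 5.31 and 4.66 counts per open cell. Next came chr8:86280582-86280977, open in 86.3% and 90.5% of cells. After it, chr13:111393164-111393428, was open in 87.0% and 84.7%. All 3 were thus open in nearly all cells at a depth where the mean peak was open in about 2% of them.

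The other 7 of these peaks ran from 80.7% and 82.5% at chr8:73956900-73957161 to 58.4% and 64.2% at chr5:80929805-80930070. Between them lay chr15:21586154-21586389 (81.4% and 75.2%), chr5:147478097-147478373 (75.2% and 76.6%), chr11:121843202-121843856 (72.7% and 75.2%), chr5:152536994-152537259 (65.8% and 70.8%) and chr6:4873700-4874279 (64.0% and 66.4%). The intervals of the 2 sets overlapped at all 10. Together they held 0.832% of the thinned counts of young 1 and 0.751% of those of young 2, with 1.57 to 5.31 counts per open cell.

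Cells differed in how much of this signal they carried. The sum over the 10 peaks had a median of 21 counts in young 1, from 0 to 99, and of 20 in young 2, from 0 to 63. In 1 young 1 cell, chr11:121843202-121843856 alone gave 81 counts of this sum. The cells at 0 numbered 4 and 3, and 14 and 7 cells had 4 counts or fewer. The 10 peaks moved together across cells: the median Pearson correlation over their 45 pairs was 0.368 in young 1 and 0.336 in young 2, with 43 and 45 pairs above 0. Cells with a high sum also had more counts in the other 34406 peaks under 300 bp, at a correlation of 0.479 over 161 cells and 0.544 over 137. Those narrow peaks held a mean of 157.4 ± 18.8 counts (SD over 14 cells) in the young 1 cells with 4 counts or fewer and 204.5 ± 30.0 in the rest, and 164.0 ± 32.0 (SD over 7 cells) and 211.6 ± 29.4 in young 2. With the counts of 3507 commonly open peaks of 1000 bp and wider, the correlation was -0.151 and -0.186. Since each cell has the same total, a higher share in one class lowers the share left for the others. The sum hardly went with the original depth of a cell in young 1 (Spearman 0.0122) and went with it weakly in young 2 (0.271).

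Among wide peaks, the one open in most cells was chr4:88286651-88287722, 1071 bp wide, at 57.1% of young 1 and 56.2% of young 2 cells. It was followed by chr9:27020677-27021994 at 49.7% and 39.4%. The next 3 all lay on chromosome 2, at chr2:175260727-175261765 (50.3% and 34.3%), chr2:177631408-177632444 (46.6% and 37.2%) and chr2:176194103-176195221 (48.4% and 35.0%). All 3 were lower in young 2, with overlapping intervals.

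Open shares of the 2 sets went together, though the order of peaks within the common range held less well. Over 18710 peaks open in at least 5% of cells of either set, the open shares correlated at 0.777 (Pearson) and 0.559 (Spearman), and over all peaks at 0.880 (Pearson). Over the 163 peaks open in at least 30% of cells of either set they correlated at 0.816 (Pearson) and 0.370 (Spearman). These points share the libraries of 2 sets, and at 5% of cells a share rests on few cells. The median log2 ratio of young 2 to young 1 was 0.10, with 10th and 90th percentiles of -0.88 and 1.08. The exact 95% intervals of the 2 sets were apart at 117 peaks (0.625%). Of these, 73 peaks (0.39% of those compared) were more than 2-fold higher in young 2 and 37 (0.198%) more than 2-fold higher in young 1. The intervals are not adjusted for the number of peaks.

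**Figure D2:**
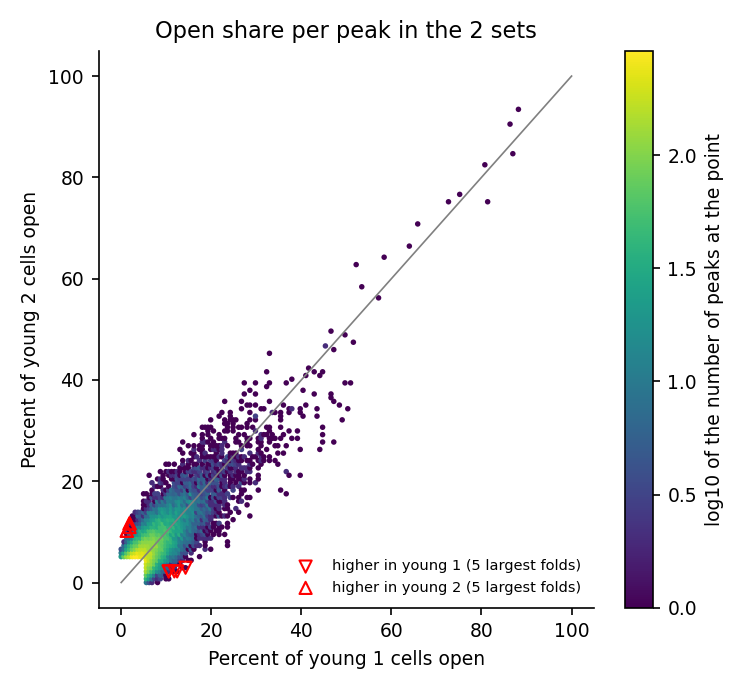
Percent of young 1 cells (x axis) and young 2 cells (y axis) in which each of the 18710 peaks was open at 2831 counts per cell, coloured by the log10 of the number of peaks at a point; the line marks equal shares and red triangles the 5 largest folds in each direction. The peaks open in most cells lie near the line, and the marked peaks lie in the lower left, with shares of 1.24% to 14.3%.

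The largest folds between the sets came from peaks with few open cells. The peak chr13:56803973-56805631 was open in 3 of 161 young 1 cells (1.86%) and 16 of 137 young 2 cells (11.7%), a ratio of 6.27 with an exact interval of 1.79 to 33.6. The same numbers of cells were open at chr14:77911957-77912766. At chr5:121028619-121029732 the cells open were 3 and 15, and at both chr1:58642425-58643738 and chr1:136548099-136548980 they were 2 and 14, a ratio of 8.23 with an interval of 1.89 to 74.6. In the other direction, chr10:43260019-43261117 was open in 12.4% of young 1 and 2.19% of young 2 cells, which is 20 and 3 cells, a ratio of 5.67 (1.68 to 29.8). The others were chr2:132704646-132705850 (19 and 3 cells), chr6:128752704-128753496 (23 and 4 cells), chr5:104888274-104889732 and chr7:75218084-75218721 (17 and 3 cells each). With all counts kept, chr10:43260019-43261117 was open in 16.6% of young 1 and 31.1% of young 2 cells, so its order between the sets turns with depth. The order turned in the same way at 3 of the other 4 peaks of this direction, all but chr7:75218084-75218721 (14.4% and 11.9%). No chromosome held the set differences: chromosome 11, with most of those higher in young 2, had 8 of 73, and chromosome 2, with most of those higher in young 1, had 4 of 37.

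Cell-to-cell spread was measured as the variance over the mean of counts across the cells of a set, which is near 1 where cells differ by random sampling alone. It was computed for 12073 peaks with at least 0.05 counts per cell in both sets. Most peaks were near this level, with a median of 1.10 in young 1 and 1.05 in young 2 and 90th percentiles of 1.42 and 1.33. A value above 2 was reached by 301 peaks in young 1 (2.49%) and 181 in young 2 (1.5%). Both sets were above 2 at 70 peaks, which is 23.3% of the first list and 38.7% of the second. Over all 12073 peaks the ranks of the 2 sets hardly went together (Spearman 0.0478).

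**Figure D3:**
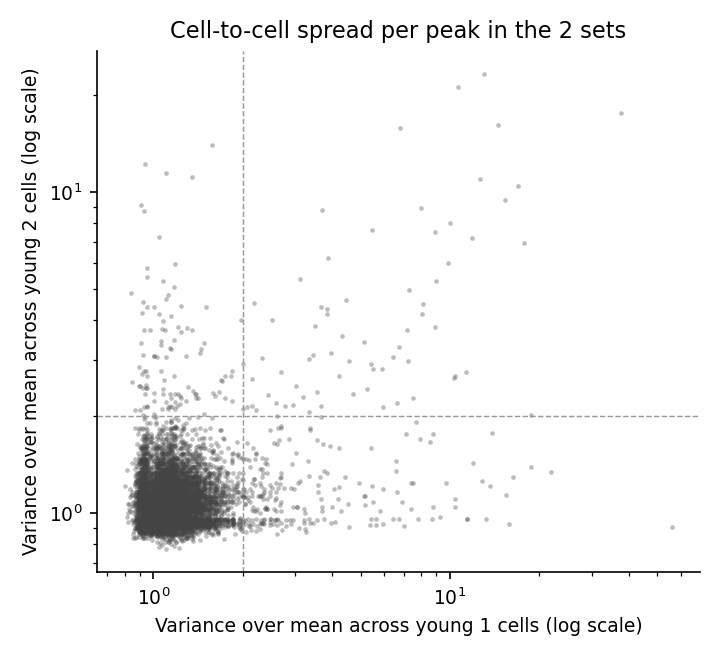
Variance over mean of counts across young 1 cells (x axis) and young 2 cells (y axis), both on log scales, for 12073 peaks at 2831 counts per cell; each point is 1 or more peaks and dashed lines mark a value of 2. Most points form a cloud near 1 in both sets, some lie high in 1 set only, and 70 peaks lie beyond both lines.

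A single cell held much of the spread at many of the most variable peaks. Of the 100 most variable peaks in each set, which are 0.828% of those tested, 32 were shared. The median variance over mean of young 1's 100 was 1.44 in young 2. In 52 of these 100 peaks in young 1, and in 32 of those in young 2, 1 cell held at least 50% of the counts. The highest value of young 1, 56.2, belonged to chr1:133806664-133808144, where 64 of 73 counts came from 1 of the 9 open cells. In young 2 the same peak had 14 counts in 14 cells and a value of 0.904. The most variable peak of young 1 was therefore among the even ones in young 2. The part of duplicates or of reads with several matches in such single-cell counts was not tested.

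The 10 most variable peaks of young 1 share 1 with those of young 2. This was chr19:34919114-34919820, with values of 37.6 and 17.6 and with 45 of 54 and 28 of 45 counts in 1 cell. Another, chr11:121843202-121843856, is among the peaks open in most cells, and 1 cell with 81 of 370 counts gave it 21.9 in young 1 against 1.34 in young 2. At chr1:107331201-107332136 (18.8 and 2.02) and chr2:150735172-150736070 (18.7 and 1.39), 1 young 1 cell had 22 of 26 counts. Young 2 was likewise near the level of most peaks at chr16:32165056-32165970 (16.3 and 1.29), chr14:21704032-21705097 (15.8 and 0.926) and chr9:44375536-44376500 (15.5 and 1.14). Of the 10, chr18:7608697-7609836 (17.8 and 6.94) and chr12:60137115-60140073 (17.0 and 10.5) were spread over several cells and stayed high in young 2.

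The least variable peaks were mostly different in the 2 sets. Of the 100 lowest in each set, which are 0.828% of those tested, 3 were common, and of the 10 lowest none. The lowest values lie at the floor of the measure, where most open cells have 1 count. The lowest of young 1 was chr11:85165849-85167052, with 33 counts in 33 cells (0.800, against 1.21 in young 2). After it came chr6:146169840-146171275 (0.812 and 1.36) and chr6:57484199-57485973 (0.814 and 0.971). The others of the 10 had 0.819 to 0.836 in young 1 and 0.941 to 1.12 in young 2. They lay at chr13:77274026-77275201, chr17:71823843-71825493, chr14:3757137-3758900, chr3:20203366-20204485, chr6:123881032-123881535, chr2:176096622-176097658 and chr8:126067530-126068152. Their open shares in young 1 ran from 17.4% to 44.7%, and no cell held more than 3 counts.

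A few peaks held many counts in a minority of cells of both sets, a pattern singled out after the values were seen. At least 5 counts in at least 5 cells of each set were found at 13 peaks. Of these, 8 were open in at least 45% of cells of a set and 5 in fewer than 45% of cells of both sets. With all counts kept, the highest young 1 and young 2 cells held 41 and 209 counts at chr18:73849207-73853114. At chr18:7608697-7609836 they held 88 and 134. Duplicates and reads with several matches may be among these counts, and their part was not tested. At chr12:60137115-60140073, 2958 bp wide, 150 young 1 cells had no count, 1 had 4, and 10 had 5 to 31. In young 2, 112 cells had none, 13 had 1 to 4 and 12 had 5 to 29. With all counts kept the parting was sharper: 168 of the 181 young 1 cells had none, 1 had 1 to 4, and 12 had at least 5, with a median of 32.5 in those 12. In young 2, 122 cells had none, 3 had 1 to 4 and 26 had at least 5, with a median of 34.5.

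**Figure D4:**
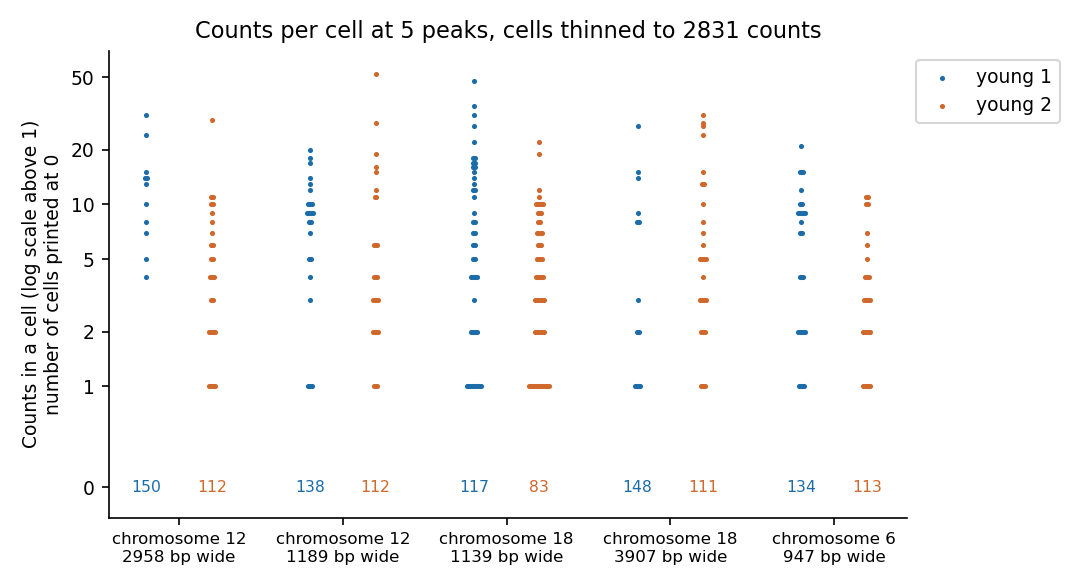
Counts in each cell thinned to 2831 counts (y axis, log scale above 1) at the 5 peaks with many counts in a minority of cells, for young 1 and young 2; each point is 1 cell, and the printed numbers at 0 count the cells without a count. Most cells have none, such as 150 and 112 at the first peak, while the highest cells reach 52 counts.

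The other 4 also had no count in most cells. In thinned young 1 cells they parted less sharply into low and high than chr12:60137115-60140073. In thinned young 2 cells that peak itself had 13 low (1 to 4 counts) and 12 high cells (at least 5). There only chr18:73849207-73853114 had more high than low cells, at 11 low and 15 high. With all counts kept, all 4 parted less sharply than chr12:60137115-60140073 in both sets. In the peak order below, young 1 then had 6 low and 22 high, 18 and 35, 4 and 10, and 15 and 21. Young 2 had 7 and 25, 11 and 50, 8 and 25, and 7 and 25. At chr12:114662454-114663643, 138 and 112 thinned cells of the 2 sets had no count, 5 and 14 had 1 to 4, and 18 and 11 had at least 5. At chr18:7608697-7609836, 117 and 83 had none, 18 and 29 had 1 to 4, and 26 and 25 had at least 5, the highest with 48 and 22. At chr18:73849207-73853114, 3907 bp wide, 148 and 111 had none, 7 and 11 had 1 to 4, and 6 and 15 had at least 5. Among thinned cells, low and high open cells were thus similar in number at the peaks on chromosome 18. At chr6:143005673-143006620, 134 and 113 had none, 12 and 17 had 1 to 4, and 15 and 7 had at least 5. Over all 5 peaks and both sets, the mean count of an open cell was 3.78 to 11.8 times that over all peaks. A high mean follows in part from picking peaks with at least 5 counts in several cells, and both sets took part in that choice.

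Cells open at one of these peaks were open at another about as often as the open shares alone give. For the 10 pairs among the 5, the number of cells open at both, divided by that expected from the 2 open shares, had a median of 1.11 in young 1 and 1.08 in young 2. The highest in young 1 was 2.33 for chr12:60137115-60140073 with chr18:7608697-7609836, with 7 of the 11 cells open at the first also open at the second. In young 2 this pair had 1.42, with 14 of 25 cells. Open cells at the first of these peaks also had more counts at its 17 neighbours within 100 kb, with a mean of 2.18 against 0.720 in the other young 1 cells and 1.48 against 0.545 in young 2. The nearest of these neighbours lay only 48 bp away. At chr6:143005673-143006620 the neighbours held 1.11 against 0.590 in young 1 and 1.00 against 0.646 in young 2. At chr18:7608697-7609836 the sets differed, with 0.614 against 0.350 and 0.259 against 0.337. The neighbours of chr12:114662454-114663643 held almost no counts. At chr18:73849207-73853114 the neighbours held 0.308 against 0.351 and 0.231 against 0.324, so no such difference was seen there. In both sets the open cells had been deeper before thinning at the same 4 of the 5 peaks. At chr12:60137115-60140073 their median was 7073 counts against 6345.5 in young 1 and 28158 against 11603 in young 2. At chr12:114662454-114663643 the order was the other way, with 5670 against 6551.5 and 11401 against 13706. The part of depth in these shares was not tested.

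Pairs of peaks were open in the same cells more often when they lay near each other. Among peaks open in at least 10% of cells of both sets, most of this came from 3 short stretches of the genome. Co-opening is given as the number of cells open at both peaks over the number expected from the 2 open shares. It was computed for the 4735503 pairs among the 3078 peaks open in at least 10% of cells of both sets. For pairs on different chromosomes the median was 0.980 in young 1 and 0.979 in young 2. For the 2198 pairs under 100 kb apart it was 1.67 and 1.31, and 625 (28.4%) and 138 (6.28%) of these pairs were above 2. Beyond 100 kb it was 1.04 in each set for pairs up to 1000 kb apart.

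Of the pairs under 100 kb apart, 1280 (58.2%) lay within 3 arrays of closely spaced peaks, found after the values were seen as stretches with at least 10 of the tested peaks in 250 kb. The median distance from the start of a commonly open peak to the nearest other start was 138 kb over all 3078. The array at chr8:125897067-126148009 had 47 tested peaks with a median step of 1708.5 bp between starts, and 29 of its 46 steps were within 5% of that. Its first tested peak lay 165 kb before the others, which span chr8:126062361-126148009. The array at chr6:114461686-114587058 had 21 tested peaks with a step of 2491 bp, and 13 of 20 steps were that close. Its largest step was 36.4 kb. At chrX:72919098-73004063 there were 11 with a step of 3865.5 bp, and 5 of 10 steps were that close, so the spacing there was less regular. Its first tested peak lay 55.8 kb before the others, at chrX:72974922-73004063. Without the array peaks, the median co-opening of the 918 pairs left under 100 kb was 1.09 in each set. Among peaks open in at least 20% of cells it was 1.38 and 1.30 without the array peaks, against 1.91 and 1.35 with them. At that threshold the arrays thus made up less of the excess over 1, above all in young 2.

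**Figure D5:**
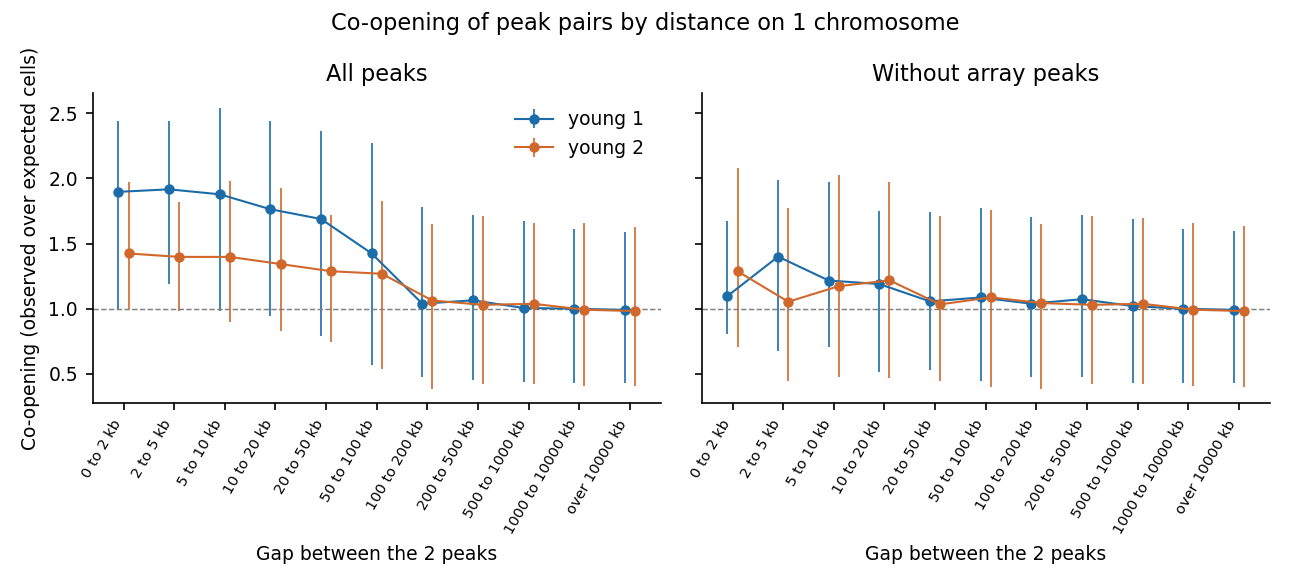
Median co-opening (observed over expected number of cells open at both peaks) by the gap between the peaks, for all tested peaks (left) and without the peaks of the 3 arrays (right), in young 1 and young 2; bars run from the 10th to the 90th percentile of pairs and the dashed line marks 1. On the left the medians fall from 1.90 and 1.42 under 2 kb to near 1 beyond 100 kb, and on the right they are between 1.03 and 1.40 at gaps under 100 kb.

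Within an array the peaks tended to have counts in the same cells in both sets. How reads with several matches were placed is not stated. Whether the evenly spaced arrays are repeats, and the part of such reads in their co-opening, was not tested. The median co-opening was 1.93 in young 1 and 1.38 in young 2 on chromosome 8, 2.02 and 1.47 on chromosome 6, and 2.10 and 1.83 on chromosome X. Without the 2 first peaks that lie apart, left out after seeing the data, it was 1.95 and 1.38 on chromosome 8 and 2.56 and 1.96 on chromosome X. It was above 1 in 85.5% to 100% of an array's pairs in young 1 and in 83.8% to 92.6% in young 2. Counts over the chromosome 8 array had a median of 7 per cell in young 1, from 0 to 58, and of 13 in young 2, from 0 to 54, and 28 and 12 cells had none. The chromosome 6 array had a median of 3 in both sets, with a mean of 4.93 ± 11.8 (SD over 161 cells) in young 1, where 1 cell stood far above the others, and cells from 0 to 15 in young 2. The chromosome X array had a median of 1 in both, and 72 and 50 cells had none. Each set thus held cells with none of an array's signal beside cells with 15 or more counts. On chromosome X only 1 cell of each set reached this, with 19 and 20 counts. On chromosome 6 in young 2 it was also only 1 cell.

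The arrays did not go together. The Pearson correlation of their counts across cells ran from -0.0470 to -0.0327 in young 1 and from -0.134 to 0.0444 in young 2. The counts of the chromosome 8 array went with the depth of the cell before thinning (Spearman 0.199 and 0.332). For the chromosome 6 array this was 0.166 and 0.0808, and for chromosome X 0.120 and 0.0501. Single peaks of an array were not variable by themselves on chromosome 8, with a median variance over mean of 1.06 and 1.02, while the sum over the array had 14.1 and 8.06.

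Of the 5 pairs with the highest co-opening in young 1 under 100 kb, 4 lay in the arrays on chromosomes 6 and X, with 4.03 to 4.33 in young 1 and 1.08 to 2.40 in young 2. The highest, 4.54, belonged to chr3:40650086-40651468 with chr3:40697533-40698832, open together in 15 young 1 cells. In young 2 it had 0.948 with 2 cells, so the pair stood apart in young 1 and not in young 2. Farther apart on 1 chromosome, 3 of the 5 highest pairs joined the same 3 peaks on chromosome 4. The peaks chr4:145370938-145371931 and chr4:145960404-145961331 had a co-opening of 5.57 in young 1 and 4.57 in young 2. The latter with chr4:146505721-146506905 had 5.41 and 6.29, and the outer pair, 1134 kb apart, 4.96 and 3.91. The 3 peaks were each open in 10.2% to 13.0% of cells, and both sets showed them open in the same cells. The pair chrX:95162153-95163197 with chrX:148177249-148178513 had 5.26 and 3.61. The fifth, chr9:88614008-88615409 with chr9:89105319-89106602, had 4.57 and 1.81.

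On different chromosomes, all of the 5 highest pairs of young 1 fell among a group of 8 peaks, 1010 to 1570 bp wide and each open in 10.2% to 21.2% of cells. The group was picked in young 1 as the peaks with a co-opening of at least 3.5, in at least 8 cells, with at least 5 peaks on other chromosomes, and the next peak had 3 such partners. Its members are chr14:106736930-106738500, chr16:86951149-86952286, chr6:103531126-103532185, chr7:138631192-138632202, chr9:23952178-23953434, chr9:92914663-92916141, chrX:95162153-95163197 and chrX:148177249-148178513. The median over their 28 pairs was 4.47 in young 1, which chose them. In young 2, which did not, the median was 2.45, from 1.42 to 3.78, and all 28 pairs were above 1 and 21 above 2. For comparison, the 127 linked pairs from which the group came had a median of 1.14 in young 2, and all pairs on other chromosomes 0.979. In the other direction, 137 linked pairs chosen in young 2 had a median of 0.958 in young 1, where 49.6% were above 1, against 0.980 for all pairs.

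Most cells had none of these 8 peaks open and a few had many. In young 1, 120 of 161 cells had none, 21 had at least 4, and the highest had all 8. In young 2, 73 of 137 had none, 14 had at least 4, and the highest had 7. The pair chr14:106736930-106738500 with chrX:95162153-95163197 had the highest co-opening in young 1, 5.98 with 12 cells, and 3.26 with 8 cells in young 2. The pair chr9:92914663-92916141 with chrX:148177249-148178513 had 5.37 with 15 cells and 3.23 with 13 cells. The weakest in young 2 of the 5 highest, chr6:103531126-103532185 with chr7:138631192-138632202, had 5.41 with 12 cells and 1.42 with 3 cells. Co-opening of the 8 with all other peaks had a median of 0.967 and 0.983, near the level of all pairs on other chromosomes. The number of these peaks open in a cell went with its depth before thinning at a Spearman correlation of 0.183 and 0.274. The same rule applied to young 2 found no such group, its best peak having 2 partners.

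Taken across all peaks, single cells overlapped little at this depth. The Jaccard distance of a pair of cells, 1 minus the share of their open peaks that both have, averaged 0.963 over 12880 pairs in young 1 and 0.963 over 9316 pairs in young 2. The closest pair shared 5.36% and 5.26% of open peaks. The mean distance of a cell to the others ran from 0.957 to 0.967 in young 1 and from 0.958 to 0.968 in young 2. So few counts per cell keep this distance near 1 for any pair, which limits how far a cell can stand out by it. Cells that had been deeper were closer to the others, with Spearman correlations of -0.280 and -0.586.

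Whether cells vary along a shared axis was examined by computing the leading component of the cells from the odd and from the even chromosomes separately. The 2 components correlated at 0.132 in young 1 and at 0.601 in young 2, in absolute value. In young 2 each also went with the depth of the cell before thinning, at 0.592 and 0.665, against 0.0263 and 0.0768 in young 1. With another random thinning the value in young 2 was 0.419. The part of counts in peaks of 1000 bp and wider rose with depth in young 1 and young 2 (Spearman 0.173 and 0.425). Its median was 41.6% in the 68 shallower and 44.3% in the 69 deeper cells of young 2. In young 1 it was 42.1% in the 80 shallower and 43.7% in the 81 deeper cells. The part of depth in the component of young 2 was not tested.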

How the data were processed

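Single-cell ATAC-seq libraries of sorted C57BL/6 bone marrow cells were prepared in plates, per the labels' protocols. The authors deposited unnormalized whole-number counts for each peak in each cell. Per the submitters' processing notes, the build was mm9 and the tools were Bowtie2, SAMtools, Picard, Trim Galore and FastQC, with no versions. The sources used here do not give the peak caller, the pooling of cells for peak calling, duplicate removal, or whether reads or fragments were counted. Pooling before peak calling, if done, would favour regions open in the deeper sets. Reads with several matches or duplicates, if kept, would raise counts at some peaks. Peak positions are as the table names them, and whether starts count from 0 or 1 is not stated. The 1060 columns of other cells were not used.

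Cells were matched to set and number by title. No doublet caller was run and no cell was removed other than by the minimum of 2831 counts for thinning (without replacement, seed 1). Thinning keeps a smaller share of the counts of deeper cells, and variance beyond random sampling shrinks with that share, so young 2 loses more of it. Shares above 0 have exact Clopper-Pearson 95% intervals, and a share of 0 is limited by 3 counts over the number of cells. Folds between sets were ranked with shares under 3 cells set to 3 cells. Ratios of rare shares are given with exact intervals from the 2 numbers of cells. Named are the 10 peaks with the highest open share, the 10 highest and lowest by variance over mean in young 1, the 5 pairs of each distance class with the highest co-opening in young 1 (at least 10 cells), and the 5 largest folds between sets in each direction with intervals apart. The members and lists were chosen with earlier results of these data known. Python 3.11.15, numpy 2.4.6, scipy 1.17.1 and pandas 2.3.3 were used, and the measures were tested on simulated data. The alternatives concern the thinning depth, the seed, narrow peaks, sex chromosomes, the deepest cells, the thresholds on peaks, binarization and leaving out each set. Peaks were not assigned to genes and no sequences are given, because the gene and sequence tables used here are of GRCm38.p6, another build than mm9.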

Additional observations from a re-analysis of the deposited data

How the results depend on the processing

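No paired analysis was possible because the 2 young sets form 1 group and no groups were compared. Values were called moved when they changed by more than the SD of the 2 sets, counts by more than 1.5 times, and correlations by 0.05. Of the main values under alternatives, 79 moved less and 35 more. Some of the 79 were fixed in advance. Leaving out 1 set cannot move a mean of the 2 sets by more than their SD. The comparison of odd and even chromosomes uses no sex chromosome, so leaving those out changes nothing there. The 79 are therefore no measure of how firm the results are. Results on the arrays and the 8 linked peaks are alternatives chosen after seeing the data. Removing thinning had the widest effect, since depth then enters each value. It gave 14262 peaks open in at least 10% and 108 in at least 50% of cells of both sets, a Spearman correlation between sets of 0.857, 18112 peaks past 2-fold, a median variance over mean of 1.37 with a correlation between sets of 0.233, co-opening of 1.29 on other chromosomes and 1.34 under 100 kb without arrays, a Jaccard distance of 0.917, and correlations of the odd and even chromosomes of 0.988 and 0.999. With 4356 counts per cell these were 7320 and 37 peaks, 0.655 between sets, co-opening of 1.18 under 100 kb, 1.03 there without arrays and 0.982 on other chromosomes, a distance of 0.946, and 0.282 for odd and even chromosomes in young 1. Another seed gave 0.980 for other chromosomes and 0.419 for odd and even chromosomes in young 2. Without peaks under 300 bp, 6 peaks were open in at least 50% of cells and the distance was 0.962. Without the 5% of cells with the most counts, co-opening under 100 kb without arrays was 1.08 and odd and even chromosomes in young 2 had 0.539. Equal detected peaks (2492) gave 0.996 on other chromosomes, 1.07 under 100 kb without arrays, a distance of 0.970 and 0.407 for odd and even chromosomes in young 2. For peaks open in at least 10% of cells the correlation between sets was 0.397, with 58 peaks past 2-fold, and summed counts gave 0.828. Peaks open in at least 20% gave co-opening of 1.01 on other chromosomes, 1.63 under 100 kb and 1.34 there without arrays. Young 1 or young 2 alone had 4217 and 4960 peaks open in at least 10%, and 16 and 13 in at least 50%, of cells. Median co-opening under 100 kb was 1.31 to 1.67 with 1 set left out, 0.979 to 0.980 on other chromosomes and 1.09 without arrays. Depth limits what can be seen at rarely open peaks: no count in 161 and 137 cells allows a share of cells with a count of up to 1.86% and 2.19%.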

Other observations

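The same chromosomes had the lowest and the highest mean open share in the 2 sets. The mean autosomal peak was open in the fewest cells on chromosome 12, at 2.02% of young 1 and 2.05% of young 2 cells, and in the most on chromosome 8, at 2.55% and 2.65%. The mean of chromosome 8 is raised by its array, where the 47 tested peaks had a median open share of 20.5% and 24.8%. Chromosome 17 came next, at 2.48% and 2.52%. The order without the array peaks was not tested. Among peaks of 600 bp and wider, the mean open share on chromosome X was 0.875 and 0.854 times that on the autosomes. The 13 peaks on chromosome Y had a count in 40 of 181 young 1 cells and 70 of 151 young 2 cells with all counts kept. At 2831 counts per cell this was 15 of 161 and 24 of 137 cells.

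Cells also differed from one another in how their open peaks were divided among chromosomes. The variance over cells of the number of open peaks on a chromosome was 1.45 to 3.26 times that of a binomial draw in young 1, with a median over chromosomes of 2.15. The highest was that of chromosome 8, which holds 1 of the arrays, and the part of the array was not tested. In young 2 the variance was 1.26 to 1.94 times the binomial, with a median of 1.71. Thinning kept a smaller share of the counts of the deeper young 2 cells, which shrinks variance beyond random sampling. The cell farthest above the mean had 1.83 times the mean number of open peaks, on chromosome 9 in young 1 and on chromosome 15 in young 2. The variance was above 1 times the binomial on each of the chromosomes tested in both sets.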
